A study of Caenorhabditis elegans with 6 samples.

Results

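The miR-72 family of the nematode Caenorhabditis elegans has 3 members on the array used here, cel-miR-72-5p, cel-miR-73-3p and cel-miR-74-3p, out of 154 probes with a worm miRNA name in the newer probe table. The members were taken by name, with any arm suffix removed, and each has 1 probe printed as 4 spots. The suffixes 5p and 3p name the arm of the precursor hairpin that gives the mature strand. The array holds 0 probes for the other arm of these hairpins.

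A miRNA is a short RNA that guides an Argonaute protein to messenger RNAs, mostly by pairing of its seed, bases 2 to 8, and lowers the output of those messages. The members of the miR-72 family share a seed with one another and with miR-31 of mammals, so they can act on overlapping sets of messages. In the WBcel235 gene table mir-72 lies on chromosome II, and mir-73 and mir-74 lie next to each other on chromosome X with no other miRNA gene between them; mir-75 is the next miRNA gene.

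Each of 6 one-colour arrays carried total RNA of whole worms, 1 µg labelled with the dye Hy3. There was 1 array for each of 2 strains under 3 exposures. The wild type was N2. The other strain carries the genotype label ced-1(n1995) I, which alters a receptor that phagocytes use to take up dying cells. Titles call it LS292 and the strain field MT4930, so the labels disagree on which strain was used. The ced-1 label stands beside the name MT4930, and whether it holds for LS292 is not given. It is called the mutant here. No probe measures ced-1, so the arrays hold no check of the genotype. Every container began with about 100000 larvae in dauer, the arrested and hardy larval stage, at 23 °C, and worms were collected 7 h after landing or after the matching time on the ground. Static flight lasted 16.5 days with gravity peaks of at most 0.01 g and a radiation dose of 1.92 mGy. The flown 1 g centrifuge received 2.27 mGy. The ground control stood in a static slot, begun 2 days later. In whole worms, fewer cells of a type and less RNA per cell cannot be told apart.

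The mutant arrays gave far more signal from worm probes than the N2 arrays did. The non-specific level of an array was set at the 95th percentile over its spike-control spots. Probes above it numbered 36 to 90 in the mutant and 27 to 31 in N2. The mutant and N2 arrays stand in separate raw tables, so the effects of strain and of raw table cannot be told apart. Of the 5 tissue and stage marker miRNAs looked at (miR-1-3p for muscle, miR-124-3p and lsy-6 for neurons, let-7-5p for late larvae, miR-71-5p for dauer), the mutant had 5 above that level in each flight array and 2 on the ground, and N2 had 2 in each flight array and 3 on the ground. The embryo and germline miR-35 family had 2, 6 and 3 of 8 probes above it in the mutant and 1 of 8 on each N2 array.

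On the mutant arrays, foreground minus local background of miR-72-5p was 181.5 in static flight, 819.5 in the centrifuge and 107 on the ground (median of 4 spots, no scaling). The spots ran from 155 to 222, from 695 to 1086 and from 90 to 196. The 4 centrifuge spots were all brighter than those of the other mutant arrays, and the ground value lay under that array's non-specific level of 150.

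miR-73-3p was the brightest reading of the family, at 283 in static flight, 2870.5 in the centrifuge and 1286.5 on the ground. Its static spots ran from 190 to 339 and its centrifuge spots from 2325 to 3485, with no overlap. On the ground the 4 spots of this 1 probe read 258, 2127, 1979 and 594, an 8.24-fold span. That spread was usual for the array: the log2 SD over spots was 1.47 for miR-73-3p, against a median of 1.58 over the 26 worm probes at 200 or more there.

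In the mutant miR-74-3p read 144.5 in static flight, 642 in the centrifuge and 191.5 on the ground. Its centrifuge spots were 634, 136, 650 and 656, and the low spot lay in a local background of 161 against an array median of 70. Its ground spots were 225, 158, 102 and 669. Ground and static spots overlapped, and all 3 medians were above the non-specific level, by 1.28 times on the ground.

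The place of a probe among the 154 worm probes needs no scaling. miR-73-3p stood at rank 18 in static flight, 7 in the centrifuge and 5 on the ground. miR-72-5p stood at rank 26 and 21 in the flights and at 53.5 on the ground, where it was under the non-specific level. miR-74-3p kept to ranks 33.5, 24 and 28. All 3 ranked better in the centrifuge than in static flight.

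**Figure D1:**
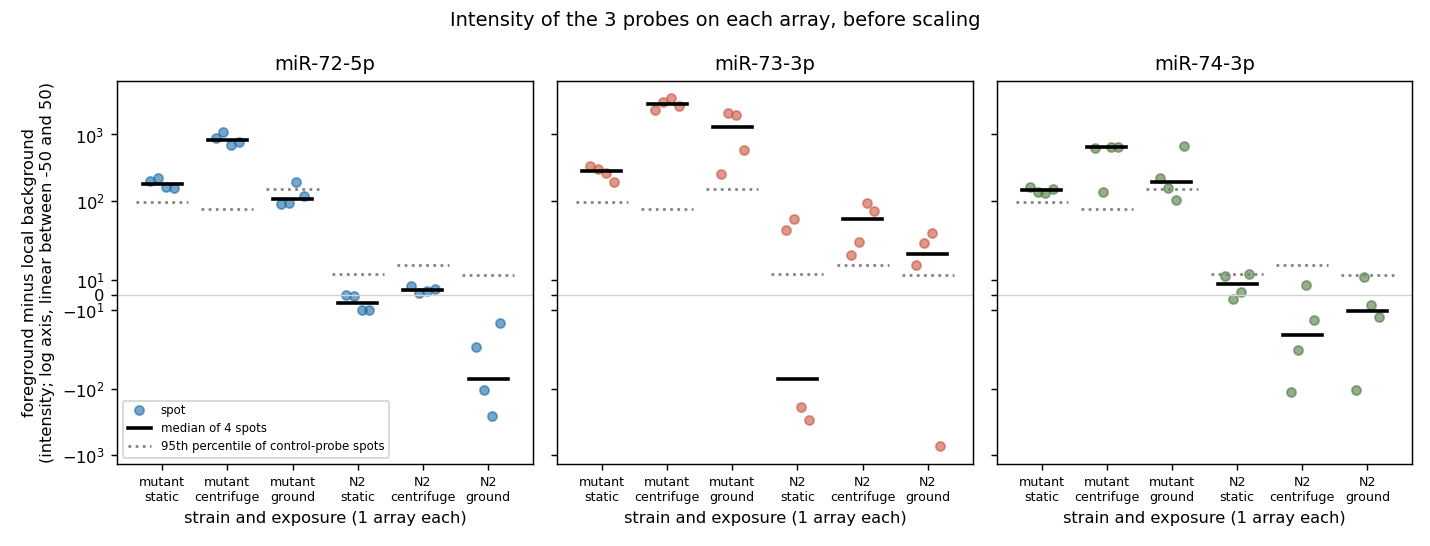
Foreground minus local background of the 3 probes on the 6 arrays (1 panel per member), with 4 spots per array, their median (black line) and the 95th percentile of control-probe spots (dotted line), on a log axis that is linear near 0. The mutant spots lie above 0 throughout and are highest in the centrifuge for the medians of all 3 members, while the N2 spots scatter around 0.

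In N2 the family was close to background. miR-72-5p read -5.5, 3.5 and -70 in static flight, the centrifuge and on the ground, and miR-74-3p read 7.5, -27 and -11; these are below the N2 non-specific levels of 14, 20 and 13.3, so each of these values is only a bound. miR-73-3p read -71.5, 54 and 27.5, and was above the non-specific level in the centrifuge and on the ground. It stood at rank 17 and 24 of 154 there.

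To compare arrays, each was scaled by its median over the 8 worm probes at 50 or more on all 6 arrays, values under 50 were then raised to that floor, and log2 was taken. None of the family is among those 8. In the mutant the scale factor was 1.08 for static flight, 0.238 for the centrifuge and 0.671 for ground, so the bright centrifuge array was brought down most. A probe was compared between 2 arrays where it read 50 or more before scaling on at least 1 of them. On the mutant arrays 50 is below the non-specific levels of 97, 75.3 and 150. There 122, 117 and 127 worm probes reached 50, but only 52, 90 and 36 were above the non-specific level. Many compared probes were thus not told from non-specific signal. With 1 array per strain and exposure a difference within a strain has no test; the technical SE beside it covers the spread of the 4 spots on each array and not the scaling.

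Between the flown gravity conditions in the mutant, miR-73-3p lay lower in static flight, where it read 305 after scaling, than in the centrifuge, where it read 684. The log2 difference was -1.16 with a technical SE of 0.22. It was lower at 4 of 4 spot positions. miR-72-5p read 196 against 195 (0.0036, technical SE 0.19) and miR-74-3p 156 against 153 (0.027, technical SE 0.41). The 95% interval of the miR-72-5p difference over its spots ran from -0.37 to 0.37, and that of miR-74-3p from -0.78 to 0.83. A 2-fold or larger difference was thus seen for 1 of the 3 members, against 14.2% of the 134 compared worm probes, and miR-73-3p was the lowest of all 134. Of the probes past 2-fold, 18 rose in static flight and 1, miR-73-3p itself, fell. Many of the 134 stood at the floor in the centrifuge after scaling, and such probes could not show a fall. Neither the 14.2% nor the place among the 134 is therefore a fair background for a fall. Without scaling all 3 were lower in static flight, by log2 differences of -2.17 for miR-72-5p, -3.34 for miR-73-3p and -2.15 for miR-74-3p. The size thus rests on the scaling, and for miR-72-5p and miR-74-3p the presence of a difference does too; with the authors' normalized values the differences were -0.88, -2.04 and -0.85.

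Between static flight and ground in the mutant, miR-72-5p read 196 in flight against 71.8 (1.45, technical SE 0.29), but its ground reading was not above the non-specific level and is only a bound. Taken at that level, 101 after scaling, the flight value was 1.95-fold higher. This is a lower limit only for the medians under this scaling. The brightest ground spot, 196 before scaling, was itself above the level of 150. When spots were averaged rather than summarised by their median the log2 difference shrank to 0.28, and to 0.14 under 75th percentile scaling. miR-73-3p read 305 in flight and 863 on the ground, a difference of -1.50 (technical SE 0.75). Its static spots overlapped the ground spots only through the lowest of these. Before scaling that ground spot read 258 and the next 594, against static spots from 190 to 339. miR-74-3p read 156 against 128 (0.28, technical SE 0.58), within the spread of its spots. At least 2-fold were thus 1 member higher and 1 lower of 3, against 23.7% of 135 compared probes in either direction; with miR-72-5p at the non-specific level the count was 1 of 3. miR-73-3p was the fourth lowest of the 135, of which many stood at the floor on the ground and could not show a fall.

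Between the centrifuge flight and ground in the mutant, miR-72-5p read 195 in flight against 71.8 (1.44, technical SE 0.29). With the ground value at the non-specific level the flight value was 1.94-fold higher, again for the medians under this scaling. This shares the ground array with the comparison above, so the like values are not independent. Averaging the spots gave 0.66. miR-73-3p read 684 against 863 (-0.34, technical SE 0.74) and miR-74-3p 153 against 128 (0.25, technical SE 0.71), both within the spread of their spots. Here 1 of 3 members differed at least 2-fold, against 16.9% of 136 compared probes, and 0 of 3 did with miR-72-5p at the non-specific level. Before scaling all 3 were brighter in the centrifuge, by 2.94, 1.16 and 1.75 on the log2 scale.

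**Figure D2:**
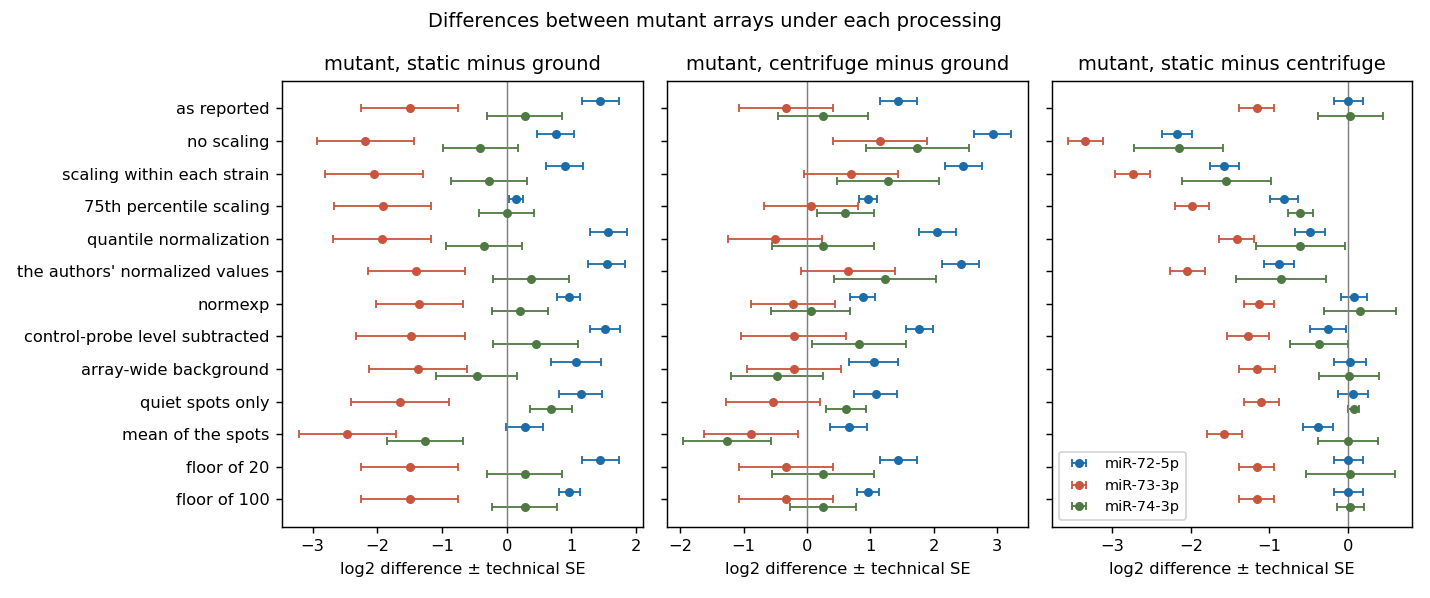
Log2 difference between mutant arrays (horizontal axis, 1 panel per pair of exposures) of the 3 members under each processing (rows), with bars for the technical SE from the spots. miR-73-3p lies below 0 in static flight against the centrifuge and against ground in every row shown, while miR-72-5p and miR-74-3p move between about 0 and below -2 in the static against centrifuge panel.

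The ratio of 2 members on the same array does not depend on how arrays are scaled, and its change between arrays shows whether the members changed unequally. Since probes differ in brightness, the ratio on a single array says nothing of which miRNA is more abundant. On the mutant arrays miR-73-3p over miR-72-5p was 1.56 in static flight and 3.50 in the centrifuge. On the ground it was 8.58 with miR-72-5p at the non-specific level, and 12.0 with its reading as it stands. The value of 8.58 is a lower limit only for the ratio of the medians, as the miR-73-3p ground spots ran from 258 to 2127. The log2 ratio was lower in static flight than in the centrifuge by 1.17 (-1.17, technical SE 0.29). Against the ratio of 8.58 on the ground, the log2 ratio differed by -2.46 in static flight and by -1.29 in the centrifuge, with no technical SE computed. Against the ground reading as it stands it differed by -2.95 (technical SE 0.81) and -1.78 (technical SE 0.80).

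miR-73-3p over its chromosomal neighbour miR-74-3p was 1.96, 4.47 and 6.72 in the same order. This ratio differed by -1.19 (technical SE 0.47) between static flight and centrifuge. Its other changes, -1.78 (technical SE 0.95) against ground in static flight and -0.59 (technical SE 1.03) in the centrifuge, were less than 2 technical SE. miR-74-3p over miR-72-5p was 0.796 in static flight and 0.783 in the centrifuge, with a difference of 0.023 (technical SE 0.45) between the flights. In orbit, then, the unequal change set miR-73-3p apart from both other members, and no difference was seen between those.

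**Figure D3:**
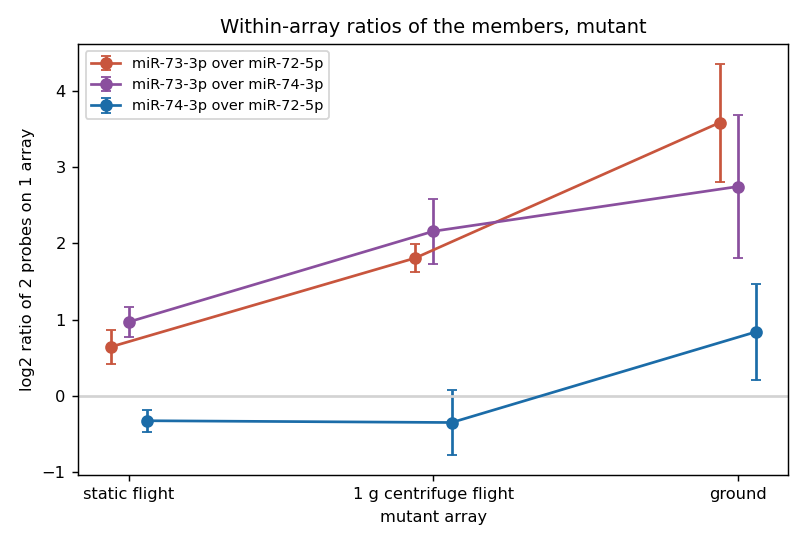
Log2 ratio of 2 members on 1 mutant array (vertical axis) in static flight, the 1 g centrifuge and on the ground, with bars for the technical SE. Both ratios with miR-73-3p on top are lowest in static flight and highest on the ground. There the miR-72-5p reading is below the non-specific level and that of miR-74-3p is above it. The ratio of miR-74-3p over miR-72-5p is nearly level between the flights.

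A second view sets each member against the other bright worm probes, with their median as the reference in place of the scaling. The places in the order need no scaling, while the values depend on that median. Of the probes above the non-specific level on both mutant flight arrays, 51 in all, the median was -1.66 in static flight against the centrifuge before scaling. Relative to that median miR-73-3p was the lowest of the 51, at -1.68, with miR-241-5p of the let-7 family next at -1.47. miR-72-5p and miR-74-3p stood at places 8 and 10 from the lowest, at -0.52 and -0.49, below the lower quartile of -0.32. Against ground, miR-73-3p in static flight was the second lowest of 28 such probes (-1.70) and miR-74-3p lay near the median (0.076). Probes that fell under the level in static flight are missing from these 28. Among the 135 compared probes, after scaling, miR-73-3p stood at place 4 from the lowest, but many of the 135 were at the floor on the ground. In the centrifuge against ground, over 36 probes, they lay at 0.19 and 0.78, inside or just above the quartiles of -1.18 and 0.74.

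**Figure D4:**
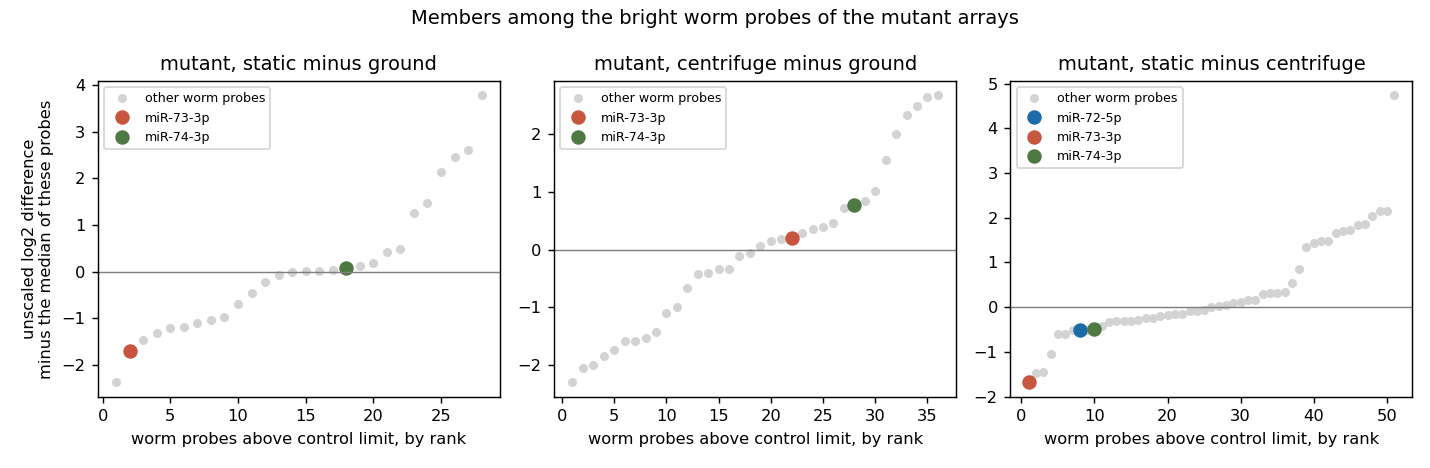
Worm probes above the non-specific level on both mutant arrays of a pair, in order of their unscaled log2 difference minus the median of these probes (vertical axis), with the members in colour. miR-73-3p is the lowest of 51 probes in static flight against the centrifuge and the second lowest of 28 against ground. Probes that fell under the level on either array are not shown. miR-72-5p appears only where its ground value is not needed.

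In N2 only miR-73-3p reached 50 on any array. It read a scaled 108 in the centrifuge, against the floor of 50 on the ground and in static flight, a difference of 1.11 (technical SE 0.43) and 1.11 (technical SE 0.48) on the log2 scale. Neither direction was firm. Against ground the foreground was higher in the centrifuge at 1 of 4 positions, and the difference was 0.11 without scaling, -0.43 under 75th percentile scaling and -0.040 with normexp. The counts were 1 of 1 compared member in each, against 54.2% of 24 compared probes and 28.6% of 21. Between static flight and ground 0 members could be compared, and 40% of 20 probes differed at least 2-fold.

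The low N2 static value of miR-73-3p came with a high local background. The foreground of its 4 spots read 262, 110, 185 and 273, and the local background around them 218, 56, 372 and 567, against an array median of 65. In the centrifuge the foreground was 88, 84, 141 and 123 and the local background 61, 48, 49 and 51. The foreground was therefore higher in static flight at 4 of 4 positions. After the subtraction static flight was lower at 2 of 4 positions, and the order of the medians turned. Spots with a background over 2 times the array's median made up 29.5% of the N2 static array and 15.6% and 9.53% of the N2 centrifuge and ground arrays. With 1 background per array in place of the local one, miR-73-3p read 158.5 in static flight and 54.5 in the centrifuge before scaling, and the scaled difference turned to 0.37 (technical SE 0.59). The lower N2 static value thus gives no second case of the mutant's difference.

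**Figure D5:**
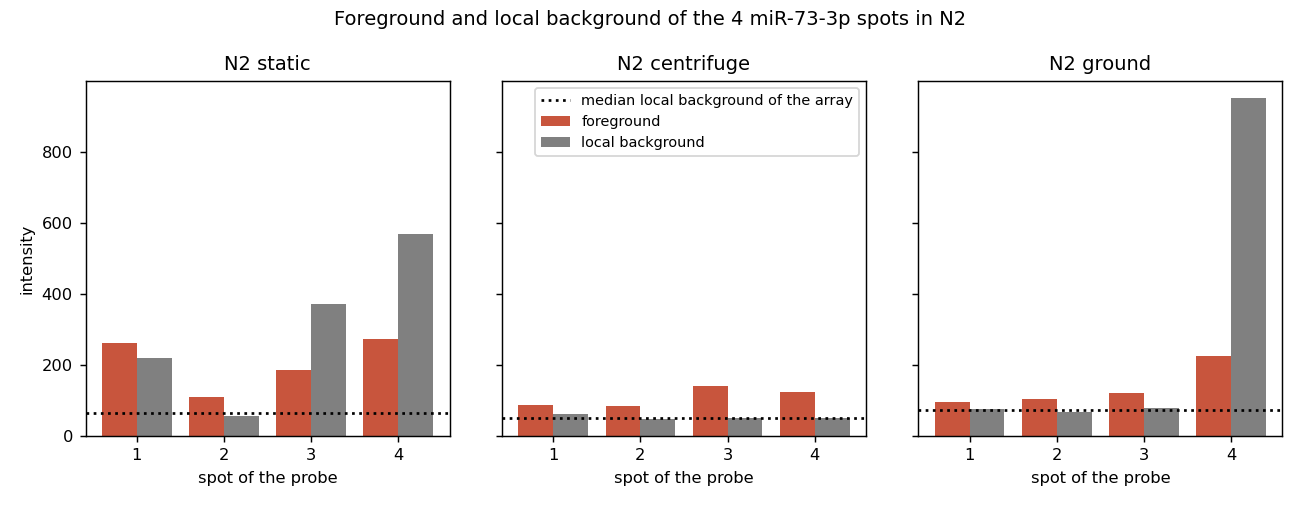
Foreground (coloured bars) and local background (grey bars) of the 4 miR-73-3p spots on each N2 array, in intensity, with the array's median local background as a dotted line. On the static array 3 of the 4 spots lie in a background above 200, and on the ground array the fourth spot lies in a background of 951.

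Exposure was tested over both strains with limma, in an additive model of strain and exposure fitted to the 126 worm probes at 50 or more on at least 2 arrays. There the strains are the only replicates of an exposure, and the p-values measure the spread between these arrays. By contrast, only 70 worm probes were above the non-specific level on at least 2 arrays. All 3 members passed the filter of 50. None of them was called, and neither was any other probe: 0% of 126 in static flight against ground, 0% in the centrifuge against ground and 0% in static flight against the centrifuge, with 2, 1 and 0 probes at an unadjusted p under 0.05. For miR-73-3p limma gave -1.13 (SE 0.49, adjusted p = 0.797) in static flight against the centrifuge. It gave -0.75 (SE 0.49, adjusted p = 0.713) in static flight and 0.39 (SE 0.49, adjusted p = 1.00) in the centrifuge against ground. The N2 static and ground values behind these estimates were floor values, and the static one came with a high local background. With 1 background per array, static flight against the centrifuge was -0.40, and with spots of low local background only it was -0.58. Static flight against ground was then -0.046 and -0.39. All N2 values of miR-72-5p and miR-74-3p were floor values, so limma's exposure estimates for them hold no N2 measurement and are not given.

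Between the strains, limma's calls for the family rest on floor values in N2. miR-72-5p and miR-74-3p passed the filter through the mutant arrays alone, so a count of members called supports nothing here; over all 126 probes 15.1% were called. For miR-74-3p limma's log2 estimate was 1.54 (SE 0.15, adjusted p = 0.0194) with 3 of 3 N2 arrays at the floor. miR-73-3p differed by 3.13 (SE 0.40, adjusted p = 0.0300) with 2 of 3 N2 arrays at the floor. miR-72-5p did not pass (limma estimate 1.49, SE 0.40, adjusted p = 0.135) and was under the non-specific level in both strains on the ground. For miR-73-3p the mutant value was 6.36 times that of N2 in the centrifuge. In static flight, where the N2 value depends on its local background, the array-wide background gave 364 in the mutant and 159 in N2, a ratio of 2.29. For miR-72-5p and miR-74-3p the N2 values at the floor have no spread, so the SE is that of the mutant arrays and can be too small.

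These calls depend on the arrays and the processing. The adjusted p of miR-73-3p was 0.132 without the centrifuge arrays and 0.397 without the static arrays of either strain, and 0.0465 without the ground arrays. That of miR-74-3p was 0.132, 0.216 and 0.0689. Both calls were lost under 75th percentile scaling, quantile normalization, a floor of 100, averaged spots and subtraction of the control-probe level, and that of miR-73-3p also without the filter. Over all alternatives limma's adjusted p ran from 1.69e-09 to 0.397 for miR-73-3p, from 1.73e-05 to 0.727 for miR-74-3p and from 4.75e-05 to 0.738 for miR-72-5p. With normexp background correction the estimates for miR-72-5p and miR-74-3p turned to -0.49 and -0.52, and under 75th percentile scaling and a floor of 100 they were 0.37 and 0.64 for miR-72-5p and 0.20 and 0.54 for miR-74-3p. With normexp that for miR-73-3p fell to 1.15 (adjusted p = 0.0195).

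Likeness of profile was measured as the root mean square distance of log2 scaled values over the 6 arrays, each profile less its own mean within a strain, among the 126 probes. Nearest to miR-72-5p were miR-63-3p (distance 0.063), miR-66-5p (0.073) and miR-793 of the let-7 family (0.10), all at the floor in N2. On the mutant ground array miR-63-3p (49.6) and miR-793 (45.9) were at the floor too. miR-66-5p read a scaled 745 and 648 in the flights against 232 on the mutant ground array. Nearest to miR-73-3p were let-7-5p (0.35), the larval timing miRNA, miR-37-3p of the miR-35 family (0.39) and miR-57-5p (0.52). let-7-5p is itself 1 of the 8 scaling probes and read 347, 365 and 699 in the mutant. Nearest to miR-74-3p were miR-85-3p (0.045), at 403, 424 and 369, and the dim miR-1019-5p and miR-54-3p (0.073 each). Both dim probes were above the floor only in mutant static flight, at 56.1 each. Their likeness thus rests on floor values and says nothing of a shared profile. Within the family miR-74-3p was the 18th nearest probe to miR-72-5p, and miR-73-3p was only the 115th.

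Over the family as a list, the median difference in the mutant was 0.28 in static flight against ground, 0.25 in the centrifuge against ground and 0.0036 between the flights. Over all compared probes it was 0.37, 0.00 and 0.50. The let-7 family, with 7 members compared, had 0.12, 0.00 and -0.072, and the miR-58/bantam family, abundant in worm tissues, with 4 members, had -0.27, -0.71 and 0.44. In static flight against the centrifuge 0 of 7 let-7, 0 of 4 miR-58/bantam and 0 of 6 compared miR-35 family members differed at least 2-fold. Some lay just under that cut: miR-241-5p (-0.945, technical SE 0.20) and miR-84-5p (-0.930, technical SE 0.22) of the let-7 family, and miR-37-3p (-0.882, technical SE 0.22). Other list members went the other way, such as miR-38-3p (0.85). The cut thus does not set the fall of miR-73-3p apart from falls in these families.

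The authors' deposited table gives their own ratios. Static flight over centrifuge in the mutant was 0.545 for miR-72-5p, 0.242 for miR-73-3p and 0.554 for miR-74-3p in the authors' deposited table. Its static flight over ground ratios were 2.93, 0.380 and 1.30, and its centrifuge over ground ratios were 5.37, 1.57 and 2.35. There miR-73-3p is again lowest of the 3 in each comparison, and the level of all 3 is set by the authors' scaling.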

How the data were processed

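For 10080 spots and 2314 probe identifiers per array, the authors' deposited raw tables hold a foreground intensity and an intensity less the local background. The authors' deposited expression table gives an intensity per probe, equal to the median of the spots for 2314 of 2314 probes (tolerance 0.01), that value divided by a factor per array, and a ratio of arrays. The rule behind the factor is not given. The series value table holds the same normalized intensity: each of its columns equals that of another sample in the expression table (relative tolerance 0.0001). Its values are linear and not centred. Column medians under its labels were 0.541 (static), 0.341 (centrifuge) and 0.106 (ground) for N2, and 0.176 (static), 0.118 (centrifuge) and 0.325 (ground) for the mutant. Taken in sample order, the columns of the series value table hold the values in the column order of the expression table. How this came about was not tested, and which labelling is right is not stated. Arrays are named here as in the raw tables, and 6 further value columns went unused.

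Spots were summarised by their median, as the authors did. Control probes are the 476 spike-control spots. Tests used limma 3.58.1 in R 4.3.3, with 2 residual degrees of freedom and calls at a Benjamini-Hochberg adjusted p under 0.05. The code was also run on simulated data with equal noise for all probes. On the arrays the spread differed between probes, so that run does not show the power of the fit here. Differences within a strain were counted at 2-fold. The number of arrays limits the precision. The array-wide background, the use of quiet spots only (local background at most 2 times the array's median) and the bound for miR-72-5p at the non-specific level of the mutant ground array were added after the data were seen. The members, lists and tests were chosen with earlier results of these data known. The text names the members, the 3 probes nearest each in profile, and list members by counts with a few examples. Neighbours and look-alikes of the members were chosen outside that rule, after their values were seen.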

Additional observations from a re-analysis of the deposited data

Results flagged for a closer look

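With the arrays scaled, miR-73-3p had opposite signs in the 2 strains between the 1 g centrifuge flight and ground. In N2 the log2 difference was 1.11 (technical SE 0.43), with the ground array at the floor, and in the mutant it was -0.34 (technical SE 0.74). The opposition depends on the scaling: N2 and mutant were 0.59 and 0.65 with the authors' normalized values, 0.11 and 1.16 without scaling, 0.26 and 0.69 with scaling within each strain, and -0.43 and 0.068 under 75th percentile scaling. The mutant value lies within the spread of its spots, and the difference between the strains was not tested.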

How the results depend on the processing

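No paired analysis was possible because each group holds 1 array; strain is already a term of the additive model. Without scaling, the mutant differences were 0.76, 2.94 and -2.17 for miR-72-5p (static against ground, centrifuge against ground, static against centrifuge). They were 1.16 and -3.34 for miR-73-3p and 1.75 and -2.15 for miR-74-3p in the comparisons with the centrifuge. With scaling within each strain, miR-72-5p came to 2.47 (centrifuge against ground) and -1.57 (static against centrifuge), where miR-73-3p came to -2.74 and miR-74-3p to -1.55. With the authors' normalized values, these were 2.43, -0.88, -2.04 and -0.85. Under 75th percentile scaling, miR-72-5p came to 0.14 (static against ground) and -0.82 (static against centrifuge), and miR-73-3p to -1.99 in the latter. Under quantile normalization miR-72-5p came to 2.06 (centrifuge against ground) and -0.48 (static against centrifuge). Averaging the spots gave it 0.28, 0.66 and -0.38, and miR-74-3p turned to -1.27 and -1.26 against ground. The changes of the 9 within-array ratios stayed within their 95% technical intervals under all alternatives run, but these intervals are wide and signs turned inside them. miR-73-3p over miR-74-3p in the centrifuge against ground ran from -1.16 to 0.37. miR-74-3p over miR-72-5p between the flights ran from -0.12 to 0.38. The sign turned in N2 for miR-73-3p: centrifuge against ground was -0.43 under 75th percentile scaling and -0.040 with normexp, and static against centrifuge was 0.37 with the array-wide background. limma's estimate for miR-73-3p in the centrifuge against ground turned to -0.18 (75th percentile), -0.11 (floor of 100), -0.018 (mean of the spots), -0.13 (normexp) and -0.35 (without the N2 ground array), and ran from -0.35 to 1.12 with 1 array left out. With normexp the strain estimates were -0.49 for miR-72-5p and -0.52 for miR-74-3p.

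Of 126 probes, limma called 2 in static flight against ground with scaling within each strain, and 1 in static flight against the centrifuge with normexp. Leaving out 1 array gave 0 to 24 and 0 to 23, the highest without the N2 static array, when the mutant alone gives the static value. The strain count of 19 became 0 (75th percentile), 1 (floor of 100), 5 (control-probe level subtracted), 9 (no filter), 12 (mean of the spots), 35 (no scaling), 44 (floor of 20), 64 (scaling within each strain) and 97 (normexp), and 0 to 11 with 1 array left out. The cause of these shifts was not tested. Signal over background limits every N2 value of the family.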

Other observations

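miR-75-3p, whose gene follows mir-74 on the chromosome, read 132 (static flight), 114 (centrifuge) and 120 (ground) in the mutant before scaling, so it lacked the high centrifuge reading of all 3 family members; the ground value lay under the non-specific level. In N2 it read -308.5, 7.5 and -13.5.

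miR-266 and miR-269 resemble miR-72 in sequence as background knowledge; no sequence was compared here, and they were picked after their values were seen. Before scaling, miR-269 in the mutant read 262 in static flight, 202.5 in the centrifuge and 99.5 on the ground, an order unlike that of the members, with the ground value under the non-specific level. miR-266 read 29.5, 78.5 and 53.5 and passed that level in the centrifuge, where the level was 75.3. In N2 both stayed below it on all 3 arrays.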
